A study of Homo sapiens with 6 samples.

Results

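The genes described here are the heat shock proteins and their DNAJ co-chaperones in A2780, a human ovarian cancer cell line. They were chosen by symbol as the HSPA, HSPB, HSPD, HSPE, HSPH, HSP90 and DNAJ families with the heat shock factors HSF1 and HSF2, without pseudogenes and without DNAJB9. This gave 73 probe sets for 69 genes, of 19460 probe sets with 1 gene symbol and 33252 probe sets in all. The rule itself uses symbols and no measured value, but it was set with earlier results of these data known. Another 13 probe sets of pseudogenes, 1 probe set of DNAJB9 and 12 probe sets annotated to several symbols were left out. HSF2 was not among the single symbols annotated here, so HSF1 alone stands for the factors. HSPA1L has 3 probe sets with identical values, and DNAJB6 and DNAJC19 have 2 probe sets each.

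Cells were infected with lentivirus coding for short hairpin RNAs (shRNAs) against a transcript, and RNA was taken after 96 hours. The groups were BMI1 shRNA (2 hairpins, 1 array each) with BMI1 Ctrl (1 array), and FAL-1 shRNA (2 hairpins, 1 array each) with FAL-1 Ctrl (1 array). BMI1 is a subunit of the chromatin complex PRC1, and FAL-1 is a long non-coding RNA. All 6 arrays are of 1 cell line, grown in medium with 10% serum, and every array comes from infected cells. Values are log2 probe set summaries that the authors deposited, and every change below is a log2 difference, hairpin minus the control of the same target. The spread between hairpins is given as SD with n = 2. The labels do not describe separate cultures, so p-values measure only the spread between these samples, and each lone control is assumed to vary as the hairpins do. The probe set of BMI1, shared with the readthrough transcript COMMD3-BMI1, read 8.73 and 9.99 with the BMI1 hairpins, against 10.64 in the BMI1 control. FAL-1 is not among the annotated symbols, so its knockdown was not checked. Medians of the 6 arrays lay between 6.94 and 7.09. Of the epithelial markers, KRT8 lay between 9.04 and 11.07 and KRT18 between 8.45 and 9.58. CDH1, EPCAM, PAX8 and MUC16, further epithelial or ovarian carcinoma markers, read below the array medians, with medians of 5.85, 6.35, 6.77 and 6.03. VIM, a mesenchymal marker, was at least 12.62 on every array, and PTPRC, a leukocyte marker, was at most 5.10. The fibroblast markers DCN and COL1A1 lay at 8.90 to 10.30 and at 8.14 to 8.97.

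Heat shock proteins help other proteins to fold and keep damaged ones from clumping. HSP70 proteins bind unfolded stretches in cycles of ATP use, J proteins (the DNAJ families) bring clients and start that ATP use, HSP90 finishes the folding of kinases and receptors, and small heat shock proteins hold unfolded proteins without ATP. On heat or other protein damage the transcription factor HSF1 binds heat shock elements, which are inverted GAA units, and turns on many of these genes, while ATF6 acts on ER stress elements before genes of endoplasmic reticulum (ER) chaperones.

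Promoter windows of 7 genes are shown because the results below turn on these genes or on how heat shock genes are recognised by HSF1. Each window runs from 250 bases before to 50 bases after a RefSeq start, on GRCh38.p14, in the direction of the gene, and matches stand in capitals. In all but HSPA5 the capitals mark the heat shock element core, GAANNTTC or TTCNNGAA, and in HSPA5 they mark the ER stress element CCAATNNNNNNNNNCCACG. Overlapping matches run together. DNAJB4 and DNAJB1 have further starts whose windows are not shown. The heat shock core reads the same on both strands, and both strands were searched for the ER element.
DNAJB4 (chr1:78004689-78004988, plus strand): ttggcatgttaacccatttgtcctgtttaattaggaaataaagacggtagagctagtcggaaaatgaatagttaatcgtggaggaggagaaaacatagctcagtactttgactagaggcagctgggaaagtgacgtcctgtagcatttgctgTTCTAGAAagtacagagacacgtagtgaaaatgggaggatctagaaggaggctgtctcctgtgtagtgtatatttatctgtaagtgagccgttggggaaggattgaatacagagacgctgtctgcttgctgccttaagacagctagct
DNAJB1 (chr19:14518348-14518647, minus strand): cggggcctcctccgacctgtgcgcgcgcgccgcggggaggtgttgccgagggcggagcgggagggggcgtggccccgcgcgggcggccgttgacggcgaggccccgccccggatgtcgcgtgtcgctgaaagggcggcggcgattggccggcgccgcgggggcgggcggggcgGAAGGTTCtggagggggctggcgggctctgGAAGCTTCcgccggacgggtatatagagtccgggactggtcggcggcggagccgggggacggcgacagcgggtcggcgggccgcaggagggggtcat
DNAJB6 (chr7:157336754-157337053, plus strand): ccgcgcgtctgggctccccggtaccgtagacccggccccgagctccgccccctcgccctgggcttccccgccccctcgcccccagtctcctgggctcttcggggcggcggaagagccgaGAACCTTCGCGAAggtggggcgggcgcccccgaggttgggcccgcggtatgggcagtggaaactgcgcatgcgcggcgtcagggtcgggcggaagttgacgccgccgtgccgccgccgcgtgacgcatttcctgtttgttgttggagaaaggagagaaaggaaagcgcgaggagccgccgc
HSPA8 (chr11:123062087-123062386, minus strand): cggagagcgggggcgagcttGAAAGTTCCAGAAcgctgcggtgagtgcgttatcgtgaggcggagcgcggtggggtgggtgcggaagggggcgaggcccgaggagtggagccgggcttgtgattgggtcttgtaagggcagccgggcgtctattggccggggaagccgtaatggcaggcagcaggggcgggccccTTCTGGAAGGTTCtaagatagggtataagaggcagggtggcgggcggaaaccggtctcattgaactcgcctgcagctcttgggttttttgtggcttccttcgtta
HSPA1A (chr6:31815293-31815592, plus strand): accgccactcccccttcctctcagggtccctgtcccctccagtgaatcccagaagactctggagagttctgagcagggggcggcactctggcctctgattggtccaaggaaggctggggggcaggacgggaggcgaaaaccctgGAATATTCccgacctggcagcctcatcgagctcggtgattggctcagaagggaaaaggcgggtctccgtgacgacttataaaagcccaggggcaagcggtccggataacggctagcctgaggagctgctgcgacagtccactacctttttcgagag
HSPB1 (chr7:76302423-76302722, plus strand): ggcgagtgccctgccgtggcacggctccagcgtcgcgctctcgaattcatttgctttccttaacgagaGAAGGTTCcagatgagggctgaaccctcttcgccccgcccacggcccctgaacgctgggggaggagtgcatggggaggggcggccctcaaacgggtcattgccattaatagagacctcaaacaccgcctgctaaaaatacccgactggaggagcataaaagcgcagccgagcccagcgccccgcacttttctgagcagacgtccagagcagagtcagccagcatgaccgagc
HSPA5 (chr9:125241294-125241593, minus strand): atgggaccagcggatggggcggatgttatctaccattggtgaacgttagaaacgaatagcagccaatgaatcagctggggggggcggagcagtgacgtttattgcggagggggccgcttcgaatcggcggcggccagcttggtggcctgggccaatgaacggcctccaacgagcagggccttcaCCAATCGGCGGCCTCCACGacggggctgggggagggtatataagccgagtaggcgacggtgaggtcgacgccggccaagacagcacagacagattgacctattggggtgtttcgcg

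RefSeq windows were found for 62 of the 69 genes, 83 windows in all. The heat shock core stood in 21 of these 83 windows (25.3%), against 13.5% of all 35116 windows of the same length. The longer form of 3 units, GAANNTTCNNGAA or TTCNNGAANNTTC, stood in 7 of 83 (8.43%), against 0.49% of all windows. The list of stress-inducible HSF1 targets holds 14 genes, with HSPA1A and HSPA1B counted in. Of these, 12 had a core match in at least 1 window (85.7%), against 16.2% of all genes with a window. By window it was 13 of 21 (61.9%), against 13.5%. Genes listed as HSF1 targets are in part known by such elements, so these shares are not separate evidence. DNAJB4 has 1 match, at base -98 from the start shown, and none in the window of its other start. HSPA8 has 4, at -230, -225, -55 and -50. The ER stress element was found before HSPA5 and HSP90B1 only among these genes, that is in 2 of 83 windows (2.41%), against 0.0769% of all windows. A match is a run of letters in a window and not a measured binding site. The map of matches against distance shows how they are spread.

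**Figure D1:**
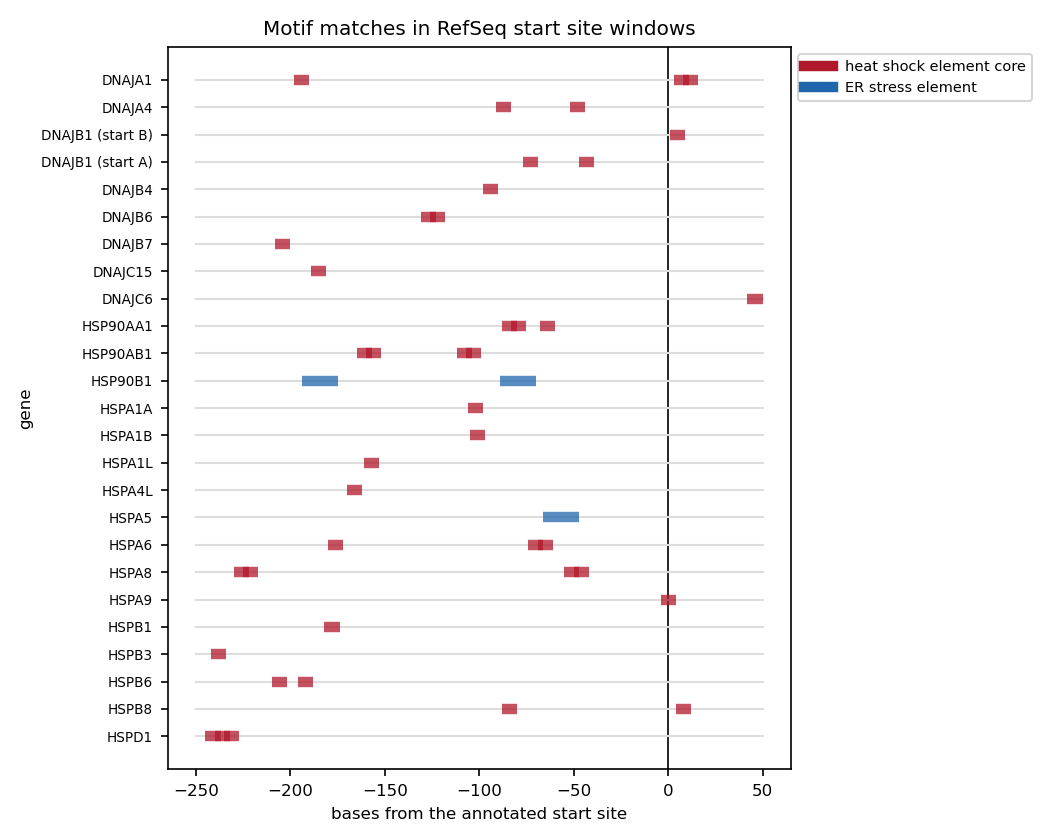
Positions of heat shock element cores and ER stress elements in promoter windows of the genes that hold one, in bases from the RefSeq start (x axis), 1 line per window. HSPA8 and HSP90AB1 have 4 core matches each, and HSPA5 has an ER stress element at -66 and no core match.

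As a whole the heat shock and DNAJ genes stood close to their controls. The median change of the 73 probe sets was -0.0026 with BMI1 knockdown and 0.041 with FAL-1 knockdown, beside 0.0060 and 0.026 over all 19460 probe sets. Changes ranged between -0.59 and 0.84 with BMI1 knockdown and between -0.49 and 0.71 with FAL-1 knockdown. None of the 73 passed limma's test at an adjusted p of 0.05 in either comparison, beside 0% of all probe sets in each. The smallest adjusted p among them was 0.99989 for BMI1, 0.999 for FAL-1, 0.911 for the average of both knockdowns and 0.99993 for the difference between them.

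At an unadjusted limma p under 0.05, DNAJB4, DNAJC1 and HSPBAP1 were 3 of 73 for BMI1, against a background of 2.58%. DNAJB4 and DNAJC1 were 2 of 73 for FAL-1, against 3.02%. For the average of both knockdowns the same 3 genes as for BMI1 were counted, against 5.22%, and for the difference between the knockdowns the count was 0, against 0.807%. Each of these counts is near what the background share would put among 73 probe sets. Both hairpins stood above the control for 25 of the 73 with BMI1, against 32.9% of all, and below it for another 25, against 30.8%. By gene these were 23 above and 24 below of 69, since the identical probe sets of HSPA1L and both of DNAJC19 were counted separately. With FAL-1, 25 stood above with both hairpins, against 37.1%, and 15 below, against 27.7%. The mean change turned sign with the other target's control for 21 of the 73 probe sets with BMI1 and for 21 with FAL-1. The distribution of changes and the heatmap show this spread around 0.

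**Figure D2:**
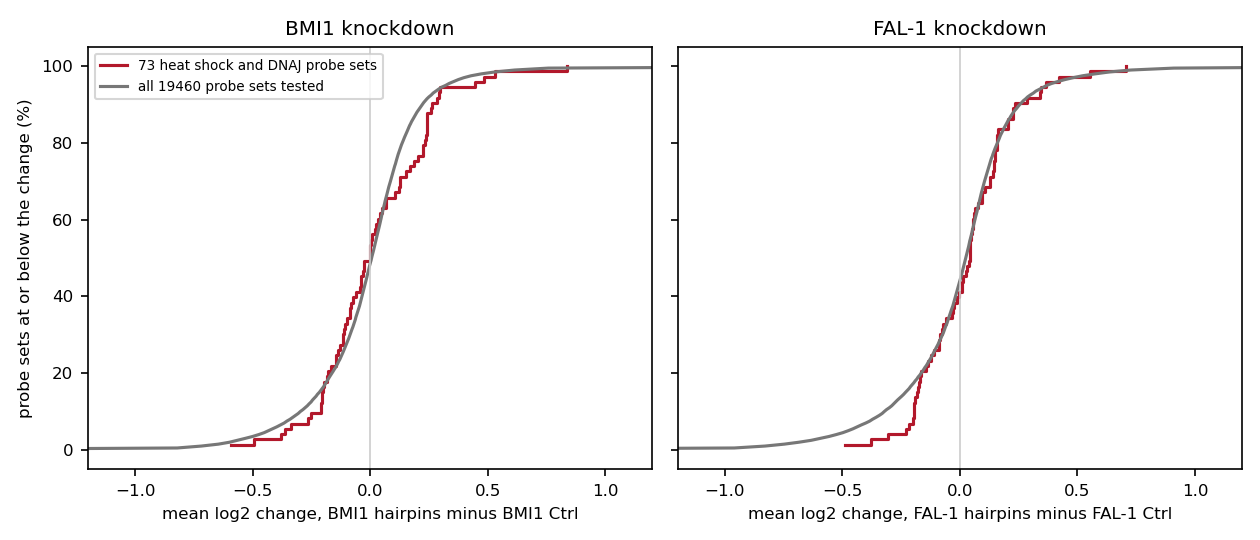
Log2 change of the 73 member probe sets beside percentiles of all 19460 probe sets, for BMI1 knockdown and for FAL-1 knockdown (mean of both hairpins minus their control). The members' medians of -0.0026 and 0.041 lie close to 0, and DNAJB4 is the highest point in both comparisons.

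**Figure D3:**
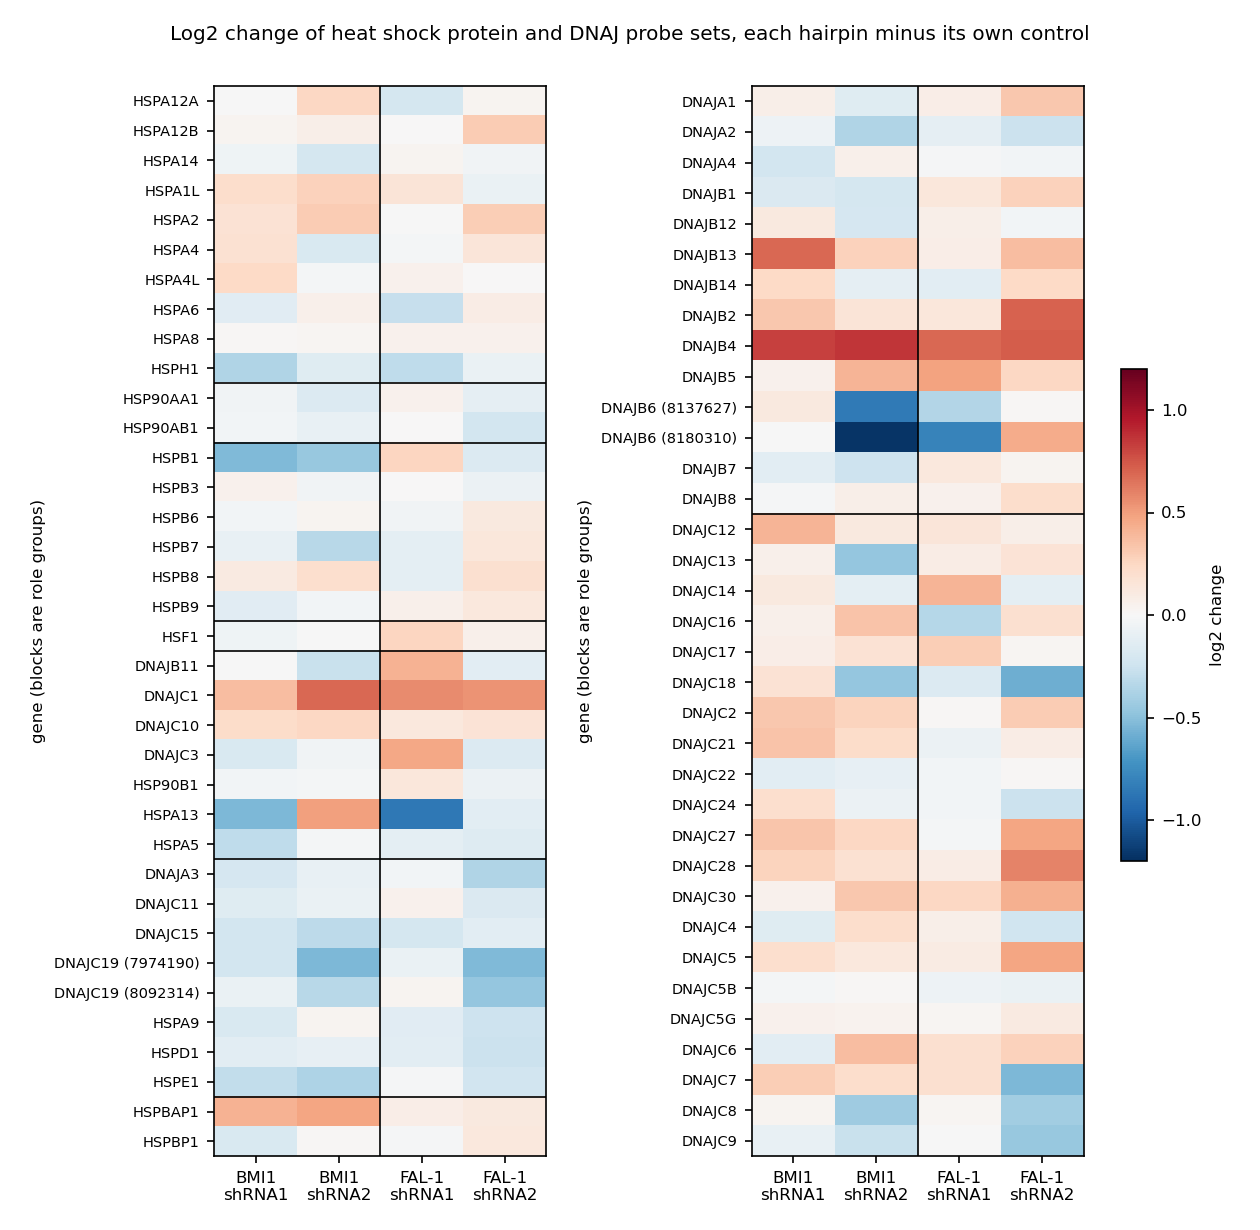
Log2 change of the heat shock and DNAJ probe sets, the 3 identical ones of HSPA1L drawn once, each hairpin minus the control of its target, in blocks by role (colour scale in log2 units). DNAJB4 and DNAJC1 are above the control with all 4 hairpins, and DNAJB6 has its lowest value, -1.18, with BMI1 shRNA2.

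DNAJB4, a cytosolic J protein that works with HSP70, was the one gene at 1.5-fold or more above the control with both hairpins of each target. It read 9.37 and 9.41 with the BMI1 hairpins, against 8.55 in the BMI1 control, and 9.48 and 9.52 with the FAL-1 hairpins, against 8.79 in the FAL-1 control. All 4 hairpin arrays lay above both controls, with no overlap. The mean change was 0.84 ± 0.025 for BMI1 (1.79-fold, limma adjusted p = 0.99989) and 0.71 ± 0.026 for FAL-1 (1.63-fold, adjusted p = 0.99912). Among all probe sets, 0.545% were this far above the control with both BMI1 hairpins and 0.576% with both FAL-1 hairpins. With the other target's control in place of its own, the means were 0.60 and 0.95, but BMI1 shRNA1 at 0.58 was then just under 1.5-fold, which left no gene that far above with both BMI1 hairpins. In bulk RNA, a change in the number of cells of a kind and a change in RNA per cell cannot be told apart, for this gene and for those below. No gene here was as far below its control with both hairpins, against 0.874% of all probe sets for BMI1 and 0.632% for FAL-1.

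Other cytosolic and nuclear J proteins of the DNAJA and DNAJB families had smaller or unequal values. DNAJB1, the classic inducible partner of HSP70, read 9.98 and 9.95 with the BMI1 hairpins, against 10.16 in the BMI1 control, and 10.22 and 10.36 with the FAL-1 hairpins, against 10.09 in the FAL-1 control. Its BMI1 hairpins both lay below their control and its FAL-1 hairpins both above theirs, with changes of -0.20 ± 0.026 and 0.20 ± 0.10. DNAJB2, a J protein of neurons that hands clients to the proteasome, read 7.62 and 7.44 with the BMI1 hairpins, against 7.29 in the BMI1 control, and 7.85 and 8.43 with the FAL-1 hairpins, against 7.72 in the FAL-1 control. Its BMI1 hairpins lay below the FAL-1 control, so the direction for BMI1 depends on the control used.

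DNAJB6, which keeps aggregation-prone proteins soluble, differed more between hairpins of 1 target than between knockdown and control. Its 8137627 probe set read 9.92 and 8.96 with the BMI1 hairpins, against 9.80 in the BMI1 control, and 9.44 and 9.80 with the FAL-1 hairpins, against 9.79 in the FAL-1 control. Its 8180310 probe set read 10.91 and 9.73 with the BMI1 hairpins, against 10.91 in the BMI1 control, and 10.14 and 11.39 with the FAL-1 hairpins, against 10.95 in the FAL-1 control. Both probe sets were low with BMI1 shRNA2 and FAL-1 shRNA1 and not with the other hairpin of each target. Hairpins at least 2-fold apart were found for DNAJB6 and HSPA13 (2 genes) with BMI1, against 0.992% of all probe sets, and for DNAJB6 (1 gene) with FAL-1, against 2.65%.

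The inducible J protein DNAJA1, which also takes HSP70 clients, had changes of 0.069 and -0.15 with the BMI1 hairpins and 0.083 and 0.33 with the FAL-1 hairpins. DNAJB5 had changes of 0.050 and 0.40 with the BMI1 hairpins and 0.48 and 0.25 with the FAL-1 hairpins, above both controls on all 4 arrays. DNAJB13, known from the axoneme of sperm and cilia, had changes of 0.69 and 0.28 with the BMI1 hairpins and 0.081 and 0.37 with the FAL-1 hairpins. DNAJB13 read between 6.04 and 6.73 on the 6 arrays, below the median of every array. Of the 13 DNAJA and DNAJB genes outside the ER and mitochondria lists, 4 were above with both BMI1 hairpins and 4 below. With both FAL-1 hairpins 8 were above and 2 below. Over all probe sets, 32.9% were above and 30.8% below for BMI1, and 37.1% and 27.7% for FAL-1.

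**Figure D4:**
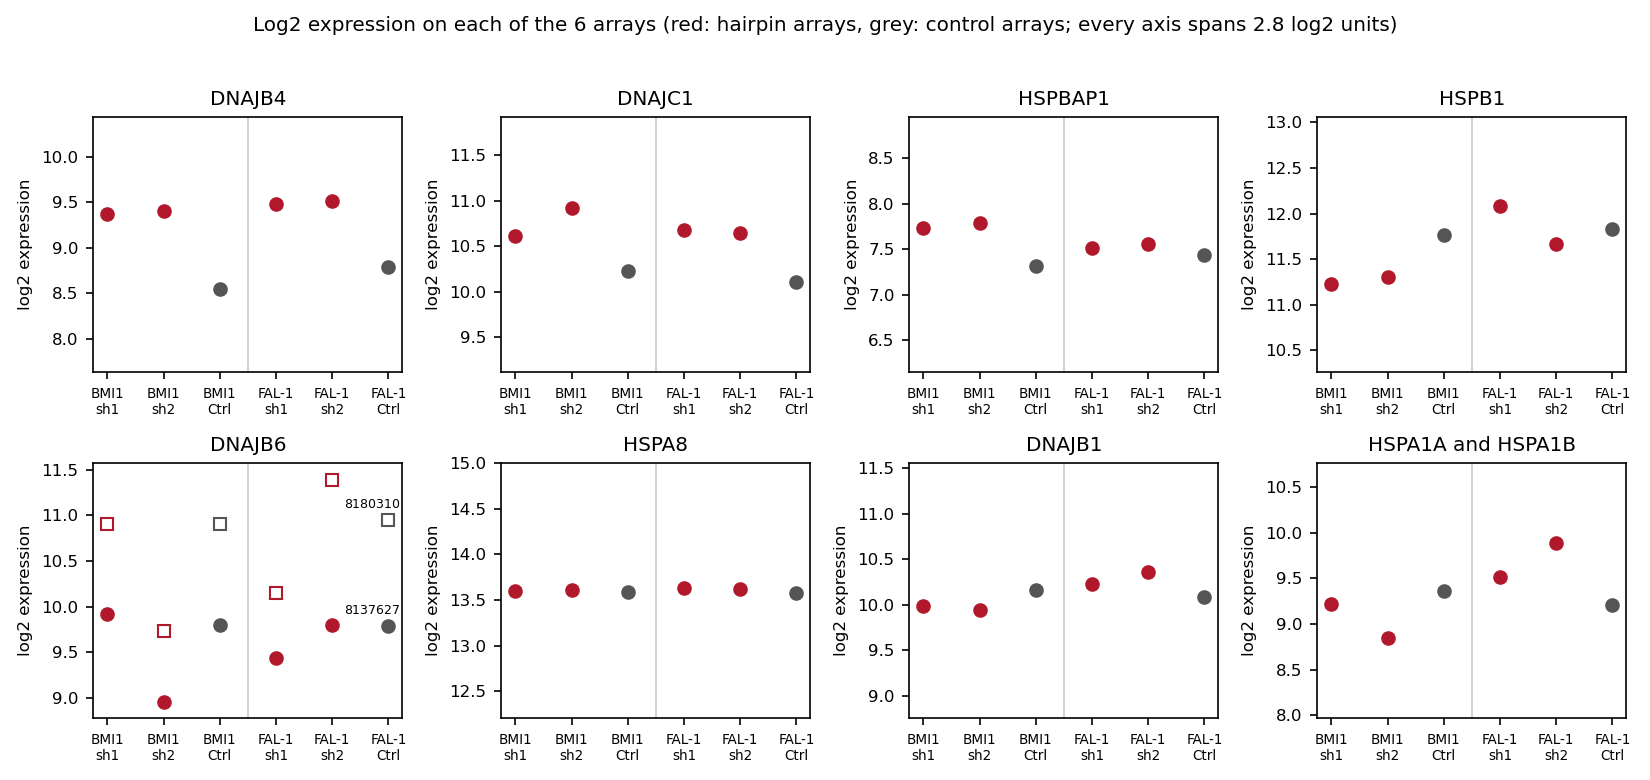
Log2 expression on each of the 6 arrays for DNAJB4, DNAJC1, HSPBAP1, HSPB1, DNAJB6 (both probe sets, squares for 8180310), HSPA8, DNAJB1, and HSPA1A with HSPA1B. Every axis spans the same number of log2 units, and in DNAJB4 the 4 hairpin arrays at 9.37 to 9.52 lie above the controls at 8.55 and 8.79.

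HSPA8, the constitutive cytosolic HSP70, read 13.60 and 13.61 with the BMI1 hairpins, against 13.59 in the BMI1 control, and 13.63 and 13.62 with the FAL-1 hairpins, against 13.57 in the FAL-1 control. The arrays lay within a narrow range, with changes of 0.019 ± 0.0041 and 0.051 ± 0.0041. HSPA6, a strictly inducible HSP70, had changes of -0.13 and 0.058 with the BMI1 hairpins and -0.27 and 0.092 with the FAL-1 hairpins. A near-identical copy, HSPA7, makes the signal of HSPA6 uncertain. HSPH1, an HSP110 that recharges HSP70 with ATP, read 11.17 and 11.39 with the BMI1 hairpins, against 11.53 in the BMI1 control, and 11.13 and 11.36 with the FAL-1 hairpins, against 11.44 in the FAL-1 control. All 4 hairpin arrays of HSPH1 lay below both controls, with changes of -0.25 ± 0.16 and -0.19 ± 0.16 (limma adjusted p = 0.99989 and 0.99912). HSPA2, HSPA4, HSPA4L, HSPA12A, HSPA12B, HSPA14 and HSPA1L had mean changes between -0.13 and 0.24 with BMI1 knockdown and between -0.089 and 0.16 with FAL-1 knockdown.

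HSPA1A and HSPA1B, the main stress-inducible HSP70 genes, are near-identical copies whose 5 probe sets carry both symbols, so they are outside the 73 and cannot be told apart. Their changes were -0.14 to -0.097 with BMI1 shRNA1 and -0.52 to -0.38 with BMI1 shRNA2, against the BMI1 control. Their changes were 0.30 to 0.33 with FAL-1 shRNA1 and 0.67 to 0.68 with FAL-1 shRNA2, against the FAL-1 control. All 5 probe sets lay below the control with both BMI1 hairpins and above it with both FAL-1 hairpins, a pattern of 6.48% of the 19460 probe sets. But 8178086 and 8179324 have identical values, so the 5 are not separate measurements. Against the FAL-1 control, changes were -0.020 to 0.0088 with BMI1 shRNA1 and -0.39 to -0.28 with BMI1 shRNA2. Against the BMI1 control, they were 0.15 to 0.25 with FAL-1 shRNA1 and 0.53 to 0.60 with FAL-1 shRNA2. In a limma fit over all probe sets of the table, the difference between the knockdowns passed for none of the 5 (smallest adjusted p = 0.99995).

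Cytosolic HSP90, which matures kinases and hormone receptors, was close to its controls. HSP90AA1, the inducible form, had changes of -0.038 and -0.16 with the BMI1 hairpins and 0.048 and -0.10 with the FAL-1 hairpins. HSP90AB1, the constitutive form, had changes of -0.036 and -0.089 with the BMI1 hairpins and 0.00052 and -0.22 with the FAL-1 hairpins. Several HSP90 pseudogenes resemble these genes, and cross-hybridisation of their probes was not tested. HSF1 read 9.31 and 9.36 with the BMI1 hairpins, against 9.36 in the BMI1 control, and 9.66 and 9.47 with the FAL-1 hairpins, against 9.40 in the FAL-1 control. Its BMI1 change of -0.030 ± 0.035 was smaller than the spread and turned to just above 0 with quantile or cyclic loess normalization, and its FAL-1 change was 0.16 ± 0.14.

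Among small heat shock proteins, HSPB1 (HSP27), which holds unfolded proteins and is abundant in many carcinoma cells, was the furthest from its BMI1 control. It read 11.23 and 11.30 with the BMI1 hairpins, against 11.76 in the BMI1 control, and 12.09 and 11.67 with the FAL-1 hairpins, against 11.83 in the FAL-1 control. Both BMI1 hairpins lay below both controls, with a mean change of -0.49 ± 0.053 from their own (limma adjusted p = 0.99989). The FAL-1 hairpins lay on both sides of their control, with 0.047 ± 0.30. HSPB8, a partner of BAG3 in autophagy of misfolded proteins, read between 5.18 and 5.55 on the 6 arrays, far below every array's median. HSPB3, HSPB6, HSPB7 and HSPB9 had changes of between -0.21 and 0.0070 with BMI1 knockdown and between -0.033 and 0.094 with FAL-1 knockdown. These genes too read below the median of every array, with means over the 6 arrays of 5.31, 6.66, 6.13 and 5.86.

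In the ER, DNAJC1, a J protein of the ER membrane, was above its control with all 4 hairpins. It read 10.61 and 10.92 with the BMI1 hairpins, against 10.23 in the BMI1 control, and 10.68 and 10.65 with the FAL-1 hairpins, against 10.11 in the FAL-1 control. Its changes were 0.53 ± 0.22 (limma adjusted p = 0.99989) and 0.55 ± 0.020 (limma adjusted p = 0.99912), with no overlap between hairpins and controls. HSPA5 (BiP), the main ER HSP70, read 11.60 and 11.88 with the BMI1 hairpins, against 11.90 in the BMI1 control, and 11.87 and 11.83 with the FAL-1 hairpins, against 11.98 in the FAL-1 control. Its 4 hairpin arrays lay below both controls, with changes of -0.16 ± 0.19 for BMI1, within the hairpin spread, and -0.13 ± 0.029 for FAL-1.

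Other ER members showed no shared direction. HSP90B1 (GRP94), the ER HSP90, had changes of -0.030 and -0.020 with the BMI1 hairpins and 0.13 and -0.067 with the FAL-1 hairpins. DNAJB11, which brings clients to BiP, and DNAJC3, which also restrains the kinase PERK in the unfolded protein response, were above the control with FAL-1 shRNA1, with changes of 0.41 and 0.46, and below it with FAL-1 shRNA2, with -0.13 and -0.16. DNAJC10, a disulfide reductase that helps remove misfolded ER proteins, was above both controls on all 4 hairpin arrays, with changes of 0.23 ± 0.025 and 0.15 ± 0.025. HSPA13 read 8.74 and 9.77 with the BMI1 hairpins, against 9.28 in the BMI1 control, and 9.13 and 9.86 with the FAL-1 hairpins, against 9.99 in the FAL-1 control, so its hairpins disagree and the controls differ. HSPA13 was the 1 gene here whose controls were 1.5-fold or more apart, against 2.66% of all probe sets.

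Of 7 listed mitochondrial chaperones and J proteins, 6 were below with both BMI1 hairpins, against 30.8% of all probe sets, and 6 with both FAL-1 hairpins, against 27.7%, with medians of -0.15 and -0.19. The FAL-1 count depends on the probe set used for DNAJC19. It takes the brighter one, 7974190, whereas 8092314 had 0.034 and -0.47 and was not below with both FAL-1 hairpins. That list was made with earlier results of these data known, and it does not hold every gene of this kind. DNAJC30, also known in mitochondria, is not on it, and its 4 hairpin arrays lay above both controls. The counts therefore hold for the listed genes only. None was called, and with the other target's control the medians were -0.25 and -0.048, where 3 of 7 were below with both FAL-1 hairpins. HSPD1 (HSP60), the chaperonin of the matrix, read 11.47 and 11.50 with the BMI1 hairpins, against 11.60 in the BMI1 control, and 11.56 and 11.44 with the FAL-1 hairpins, against 11.69 in the FAL-1 control. HSPE1 (HSP10), its lid, read 9.64 and 9.56 with the BMI1 hairpins, against 9.93 in the BMI1 control, and 10.00 and 9.78 with the FAL-1 hairpins, against 10.01 in the FAL-1 control. HSPE1 had changes of -0.33 ± 0.056 for BMI1 (limma adjusted p = 0.99989) and -0.12 ± 0.15 for FAL-1. Both share a promoter region on chromosome 2, and their BMI1 hairpin arrays lay below both controls.

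HSPA9 (mortalin), the matrix HSP70, read 11.90 and 12.12 with the BMI1 hairpins, against 12.09 in the BMI1 control, and 12.38 and 12.27 with the FAL-1 hairpins, against 12.52 in the FAL-1 control. The FAL-1 control of HSPA9 is itself above the BMI1 control, so against the BMI1 control the FAL-1 mean was 0.24 in place of -0.19. DNAJC15, a J protein of the import motor, was below both controls on all 4 hairpin arrays, with changes of -0.26 ± 0.064 and -0.17 ± 0.061. The 7974190 probe set of DNAJC19, another import J protein, read 9.77 and 9.45 with the BMI1 hairpins, against 9.99 in the BMI1 control, and 9.72 and 9.27 with the FAL-1 hairpins, against 9.80 in the FAL-1 control. Its 8092314 probe set gave changes of -0.080 and -0.33 with the BMI1 hairpins and 0.034 and -0.47 with the FAL-1 hairpins. DNAJA3, a mitochondrial J protein, had changes of -0.20 and -0.092 with the BMI1 hairpins and -0.030 and -0.36 with the FAL-1 hairpins, and its FAL-1 mean was 0.079 against the BMI1 control.

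The DNAJC family is the most varied, since its members share the J domain and little else. Of the 21 DNAJC genes outside the ER and mitochondria lists, 11 were above with both BMI1 hairpins and 2 below, and 9 were above with both FAL-1 hairpins and 4 below. Over all probe sets, 32.9% were above and 30.8% below for BMI1, and 37.1% and 27.7% for FAL-1. With the other target's control the BMI1 counts were 9 above and 8 below. DNAJC2 (ZRF1), a J protein of the ribosome that also binds chromatin carrying the ubiquitin mark that PRC1 makes on histone H2A, read 9.89 and 9.83 with the BMI1 hairpins, against 9.56 in the BMI1 control, and 9.57 and 9.85 with the FAL-1 hairpins, against 9.55 in the FAL-1 control. All 4 of its hairpin arrays lay above both controls, with changes of 0.30 ± 0.044 and 0.16 ± 0.20 (limma adjusted p = 0.99989 and 0.99912). DNAJC30, known for the assembly and repair of complex I, had changes of 0.052 and 0.32 with the BMI1 hairpins and 0.25 and 0.43 with the FAL-1 hairpins. DNAJC27, a Rab-like protein with a J domain, had changes of 0.34 and 0.25 with the BMI1 hairpins, but a mean of -0.12 against the FAL-1 control. DNAJC6 (auxilin), which strips clathrin coats, and DNAJC28 had FAL-1 changes of 0.19 and 0.28 and of 0.088 and 0.60 with the hairpins in order. DNAJC18 was -0.17 and -0.59 from the FAL-1 control with the FAL-1 hairpins.

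Outside the chaperones proper, the symbol rule also took in HSPBAP1, named for binding HSPB1, and HSPBP1, a nucleotide exchange factor of HSP70. HSPBAP1 read 7.73 and 7.79 with the BMI1 hairpins, against 7.31 in the BMI1 control, and 7.52 and 7.55 with the FAL-1 hairpins, against 7.44 in the FAL-1 control. Its BMI1 change of 0.45 ± 0.041 had a limma adjusted p = 0.99989, and all 4 hairpin arrays lay above both controls. HSPBP1 had mean changes of -0.087 with BMI1 knockdown and 0.058 with FAL-1 knockdown.

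Set against both controls together, 12 of the 73 probe sets had all 4 hairpin arrays above both (16.4%), against 8.87% of all. These were DNAJB13, DNAJB4, DNAJB5, DNAJC1, DNAJC10, DNAJC2, DNAJC28, DNAJC30, DNAJC5, DNAJC5G, HSPA8 and HSPBAP1. The changes of DNAJC5G and HSPA8 were at most 0.10 with any hairpin. DNAJC15, DNAJC19 (probe set 7974190, but not 8092314), HSPA5, HSPD1 and HSPH1 were 5 with all 4 arrays below both, against 7.94%. DNAJB1, DNAJB7, HSF1 and HSPB9 were below with both BMI1 hairpins and above with both FAL-1 hairpins, which is 4 of 73 against 6.48%. With the other target's control both mean changes were turned for DNAJB7 and for HSPB9. The opposite pattern was seen for 0, against 4.5%.

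Chaperone pathways around these genes also had no call. The 12 measured HSF1 targets outside the members had medians of -0.21 with BMI1 knockdown and 0.14 with FAL-1 knockdown. Of these, 9 were below for BMI1, against 30.8% of all probe sets, and 8 were above for FAL-1, against 37.1%. The medians were -0.23 and 0.059 with the other target's control, where 7 were below for BMI1 and 7 above for FAL-1. CHORDC1, an HSP90 co-chaperone, had changes of -0.71 and -0.43 with the BMI1 hairpins, and BAG3, which joins HSP70 to small heat shock proteins, had changes of 0.24 and 0.50 with the FAL-1 hairpins. CRYAB, a small heat shock protein that the symbol rule does not take in, had changes of 0.38 and 1.41 with the FAL-1 hairpins. Of 14 genes of the CCT chaperonin and prefoldin, which fold actin and tubulin, 11 were below with both BMI1 hairpins and 9 with both FAL-1 hairpins, against 30.8% and 27.7% of all probe sets, with medians of -0.15 and -0.11. Against the other target's control 12 were below for BMI1, whereas for FAL-1 5 were above and 5 below, with a median of -0.034. CCT5 read 10.83 and 10.87 with the BMI1 hairpins, against 11.41 in the BMI1 control, and 11.25 and 11.11 with the FAL-1 hairpins, against 11.40 in the FAL-1 control.

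Among 20 measured co-chaperones and exchange factors, both BMI1 hairpins were above the control for 5 and below for 8, and both FAL-1 hairpins were above for 9 and below for 7. The shares of all probe sets were 32.9% above and 30.8% below for BMI1, and 37.1% and 27.7% for FAL-1. Against the other target's control 1 was above and 14 below for BMI1, and the FAL-1 median was 0.11 in place of -0.072. GRPEL2, a mitochondrial exchange factor, had changes of -0.72 and -0.70 with the FAL-1 hairpins, and CDC37L1, a relative of an HSP90 kinase co-chaperone, had 0.57 and 0.70. ER folding targets of ATF6 and XBP1 had 8 of 14 below with both BMI1 hairpins, against 30.8% of all probe sets. Above with both FAL-1 hairpins were 6 of 14, against 37.1%. The other target's control gave 11 below for BMI1 and 7 above for FAL-1. XBP1 read 10.21 and 10.56 with the BMI1 hairpins, against 10.80 in the BMI1 control, and 10.49 and 10.31 with the FAL-1 hairpins, against 11.04 in the FAL-1 control. Of 10 mitochondrial proteases and import genes, 8 were below with both BMI1 hairpins and 6 with both FAL-1 hairpins, against the same 30.8% and 27.7%. When the controls were exchanged, 9 were below for BMI1, but for FAL-1 4 were above and 2 below, and the FAL-1 median was 0.047 in place of -0.14.

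The values of amino acid response targets of ATF4 also depended on the control used. Their 14 genes had medians of -0.20 with BMI1 knockdown and -0.90 with FAL-1 knockdown. Below with both FAL-1 hairpins were 13 of 14, against 27.7% of all probe sets. They also differed between the controls, by a median of 1.3 (FAL-1 Ctrl minus BMI1 Ctrl), and with the other target's control the medians were -1.22 and -0.087. DDIT3, which drives cell death in prolonged stress, read 8.29 and 8.39 with the BMI1 hairpins, against 7.34 in the BMI1 control, and 9.12 and 9.16 with the FAL-1 hairpins, against 10.07 in the FAL-1 control. For the 73 heat shock and DNAJ probe sets the controls differed by a median of 0.12 in size and by up to 0.70.

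**Figure D5:**
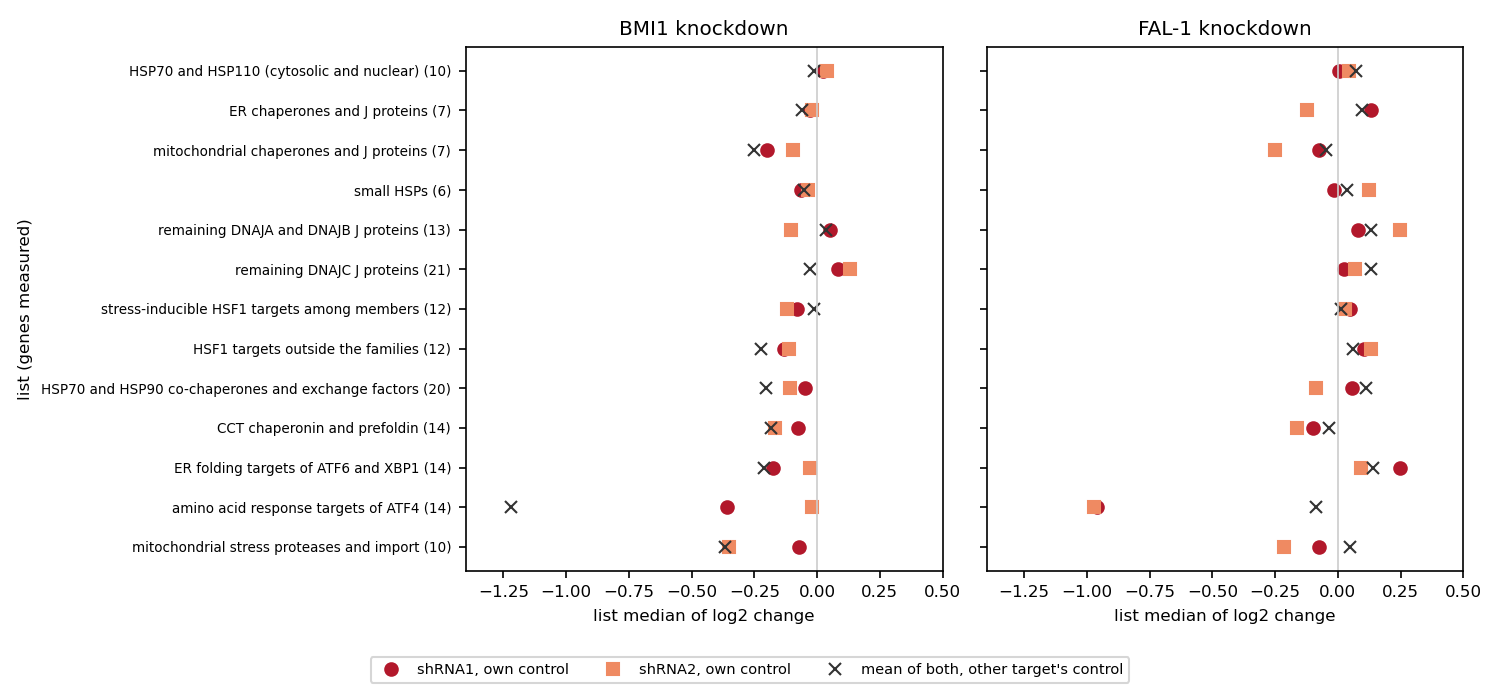
Median log2 change of each gene list for each hairpin against its own control, and for the mean of both hairpins against the other target's control (crosses), for BMI1 knockdown (left) and FAL-1 knockdown (right). The chaperone lists lie within 0.4 of 0, and the ATF4 list of the FAL-1 panel lies near -0.90 against its own control and at -0.087 against the other control.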

How the data were processed

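Total RNA from 6 samples was labelled with an Affymetrix whole-transcript kit and hybridised to 1-colour arrays, per the labels' protocols. The authors deposited a table of 33252 probe sets on a log2 scale, and per the submitters' processing notes RMA was used to make these log2 values, with its version and the array's build not given in the sources used here.

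All 6 arrays entered 1 limma 3.58.1 fit (R 4.3.3) over the 19460 probe sets with 1 symbol, with 4 group means, lmFit and eBayes, two-sided, with Benjamini-Hochberg adjustment over all 19460. The fit has 2 residual degrees of freedom, which come from the hairpin pairs alone, and so few arrays limit the precision. The contrasts set a knockdown against the control of its target, then took the mean of both contrasts and the difference between them. Counts at 1.5-fold use both hairpins and no test. The fit was tested on simulated data. Where a gene of a list had several probe sets, the brightest on average stood for it. Probe set names came from the platform annotation, and promoter windows from RefSeq (GRCh38.p14) matched by symbol. matplotlib 3.10.9 in Python 3.11.15 drew the figures.

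The members and all gene lists were chosen with earlier results of these data known. Genes named in the text followed a rule over both comparisons: those 1.5-fold or more with both hairpins, up to 6 per direction by the smaller hairpin change, up to 4 by smallest p for the average and the difference, up to 5 by the largest single hairpin change, and a fixed set of well-known chaperones. From each pathway list, up to 4 genes with the smallest p in either knockdown could be named, so these are not typical of their list. Other genes named were members of a counted group. Alternatives were the other control or both controls, quantile and cyclic loess normalization, 1 probe set a gene, all probe sets, no dim probe sets, the hairpin number as a block, eBayes with a trend or robust, leaving out hairpins 1 at a time, and other thresholds.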

Additional observations from a re-analysis of the deposited data

Results flagged for a closer look

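In DNAJB1, DNAJB7, HSF1 and HSPB9 both BMI1 hairpins lay below their control and both FAL-1 hairpins above theirs. The difference between the knockdowns (FAL-1 change minus BMI1 change) was 0.40 for DNAJB1, with a FAL-1 change of 0.20 and a BMI1 change of -0.20. It was 0.26 for DNAJB7, with changes of 0.078 for FAL-1 and -0.18 for BMI1, and 0.19 for HSF1, with 0.16 for FAL-1 and -0.030 for BMI1. For HSPB9 it was 0.18, with 0.094 for FAL-1 and -0.086 for BMI1. With the other target's control both directions turned for HSPB9, to -0.022 for FAL-1 and 0.030 for BMI1, and likewise for DNAJB7, to -0.14 and 0.031. The difference itself did not pass limma's test for any of them, with an adjusted p of 0.99993 for each. For HSF1 the smallest hairpin change was 0.0049 in size, and the readings of DNAJB7 (5.33 to 5.58) and HSPB9 (5.77 to 5.92) lie far below the array medians. As the text gives for HSPA1A and HSPA1B, their shared probe sets had the same pattern, and they were not counted among the members.

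Outside the members, BAG3 and CRYAB had the same pattern, with differences of 0.43 and 1.15 (limma adjusted p = 0.99993 for each). That pattern was found for 6.48% of all probe sets. BAG3 had changes of 0.37 for FAL-1 and -0.056 for BMI1, and its smallest hairpin change was 0.023 in size. CRYAB had changes of 0.89 for FAL-1 and -0.25 for BMI1. DDIT3 had the opposite pattern, with a difference of -1.92 (limma adjusted p = 0.99993), a FAL-1 change of -0.92 and a BMI1 change of 0.999. Its control arrays differ by 2.73 (FAL-1 Ctrl minus BMI1 Ctrl), and with the other target's control its changes were 1.80 for FAL-1 and -1.73 for BMI1.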

How the results depend on the processing

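No member was called in any of the 15 alternatives run for each of the 4 contrasts. The smallest adjusted p over them was 0.797 for BMI1, 0.343 for FAL-1, 0.222 for the average and 0.431 for the difference, and the lowest for FAL-1 and the average were without FAL-1 shRNA1. The median change for BMI1 was -0.054 with the other target's control, -0.023 with both controls, -0.038 without dim probe sets and -0.027 with the HSPA1A and HSPA1B probe sets, an alternative chosen after the data were seen. Leaving out 1 hairpin gave -0.0049 to 0.016. The median for FAL-1 was 0.088 with the other control, 0.029 with both controls, 0.025 with quantile normalization, 0.016 with cyclic loess and 0.011 without dim probe sets, and 0.024 to 0.032 with 1 hairpin left out. Of members 1.5-fold or more higher with both BMI1 hairpins (DNAJB4, 1 gene), there were 0 with the other control, 2 at 1.3-fold, 0 at 2-fold, and 2 whichever hairpin was left out. For the lower direction with BMI1 there was 1 at 1.3-fold, and 0 to 2 with 1 hairpin left out. Those 2 were the probe sets of 1 gene, DNAJB6, with changes of -0.85 and -1.18 for BMI1 shRNA2. With FAL-1, 2 were higher at 1.3-fold, 0 at 2-fold, and 1 to 3 with 1 hairpin left out, and 1 to 2 were lower with 1 hairpin left out. Leaving out 1 hairpin leaves a lone array that is assumed to vary like the others, and the count then needs that hairpin alone.

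Over the genes named by the rule, 65 of 894 values under the alternatives had another sign than the reported value. In 14 of them both hairpins had stood on the same side of their own control, and these are given here. With the other target's control, BMI1 changes became -0.19 for DNAJB2, 0.031 for DNAJB7, -0.12 for DNAJC27, 0.056 for HSP90AA1 and 0.029 for HSP90B1, and FAL-1 changes became 0.079 for DNAJA3, -0.14 for DNAJB7, 0.21 for HSPA13 and 0.24 for HSPA9. With both controls, the BMI1 change of HSP90B1 was 0.0021, and the FAL-1 changes of DNAJB7 and HSPA9 were -0.030 and 0.021. The BMI1 change of HSF1 was 0.0068 with quantile normalization and 0.00065 with cyclic loess. A change against the other control, or against both, differs from the reported one only by the gap between the control arrays. What made the controls differ was not tested, nor was the turn of HSF1 with normalization.

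The hairpin numbers 1 and 2 are shared by both targets. As a replicate block they changed no call, with 0 members called and a smallest adjusted p of 0.969 for BMI1, 0.813 for FAL-1, 0.562 for the average and 0.99991 for the difference. Deviations of same-numbered hairpins from their group means correlated at 0.280 across probe sets, and the numbers mark different hairpins, so the block is not a pairing of the design. The deposited values give no detection call, so low readings cannot be set against a background.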

Other observations

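DNAJB9, an ER J protein of the unfolded protein response that was left out of the members by name, was above the control with every hairpin. Its changes were 0.32 and 0.68 with the BMI1 hairpins and 0.57 and 0.96 with the FAL-1 hairpins. The probe set annotated to HSPE1-MOB4 and MOB4 had changes of -0.56 and -0.64 with the BMI1 hairpins, beside -0.30 and -0.37 for HSPE1. It carries several symbols and so cannot be assigned to HSPE1.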
